A study of Mus musculus with 9 samples.

Results

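The genes of MHC class II presentation were examined in mouse splenic dendritic cells (DC). They were taken by name as 10 genes: the classical class II chains H2-Aa, H2-Ab1 and H2-Eb1, the invariant chain Cd74, the H2-DM chains H2-DMa, H2-DMb1 and H2-DMb2, the H2-DO chains H2-Oa and H2-Ob, and the transactivator Ciita. All 10 were found among the 39179 genes of the count table, and all 10 passed the filter on low counts, with 13819 genes tested in all. RNA was sequenced from cDC1s, cDC2s and pDCs, with 3 libraries of each subset. The cells came from C57BL/6J mice aged 6 to 12 weeks that had received no stimulus, and each library was made from the pooled spleens of 15 to 17 mice. Cells of other lineages were first depleted with antibodies, among them those to CD3, Thy-1, Ly6G/Ly6C and TER-119. The cDC1s were then sorted as CD11c-high, CD317-low, CD8-positive and CD11b-negative cells, the cDC2s as CD8-negative, CD11b-positive cells of the same CD11c and CD317 gate, and the pDCs as CD11c-intermediate, CD317-high, CD11b-negative cells. No gate used a class II protein. Libraries with the same replicate number carry the same date code in all 3 subsets.

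MHC class II molecules are pairs of an alpha and a beta chain that show peptides from the endocytic pathway to CD4 T cells, and DC carry them at high levels even when resting. In the endoplasmic reticulum the new pair is held by the invariant chain, which is later cut down by cathepsins to a fragment in the groove. H2-DM exchanges that fragment for a peptide, H2-DO restrains H2-DM, and CIITA is the co-activator that the RFX, CREB and NF-Y proteins recruit to the promoters of these genes. C57BL/6 mice make I-A (H2-Aa with H2-Ab1) but no I-E, because their I-E alpha gene is not functional, so H2-Eb1 transcripts have no partner chain.

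Transcript counts were scaled with TMM factors, which correct for library size and composition, and are given as TMM-normalized CPM with the SD over 3 libraries. The libraries held between 15806597 and 32453789 counts on genes, and replicate 3 had the lowest total in each subset. The floor of 3 counts lay between 0.0908 and 0.203 CPM, for counting error only, and the lowest count of any member in any library was 525 reads, for H2-Ob in a pDC library. Libraries of one subset were further apart than sampling noise alone (chi-square per degree of freedom of 10.6 to 67.7), so each was counted separately. Where a log2 fold change is given, the adjusted p comes from edgeR's quasi-likelihood test over all 13819 genes with Benjamini-Hochberg adjustment, and the call threshold was 0.05. Several markers of the subsets followed the labels, with Xcr1 at 936 CPM in cDC1s and 4.64 in pDCs, Itgam at 235 CPM in cDC2s and 11.6 in cDC1s, and Siglech at 4752 CPM in pDCs and 27.1 in cDC1s. Some listed markers of conventional subsets were also high in pDCs: Cd209a, a cDC2 marker, was at 546 CPM in pDCs and 255 in cDC2s, Sirpa at 520 CPM in pDCs, and the cDC1 markers Clec9a and Cd8a at 252 and 338 CPM in pDCs against 50.2 and 21.1 in cDC2s.

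The 8 H2 genes lie close together on mouse chromosome 17 (GRCm38, GENCODE M21 annotation), from H2-Oa at chr17:34092340-34095234 to H2-Eb1 at chr17:34305867-34316674. H2-Aa (chr17:34282744-34287823) is on the minus strand and the other 7 are on the plus strand. Ciita is at chr16:10480059-10528418 on the plus strand. RefSeq promoter windows of 300 bases on GRCm38.p6 were at hand for 7 members. They were searched for ATTGG, the Y box bound by NF-Y (an inverted CCAAT), and for AGNNACNG, used here as letters of the X box bound by RFX, on both strands. The stretches that carry ATTGG in the direction of the gene are printed because these genes are known to share this promoter arrangement. Its part in their levels in the subsets was not tested. Capitals mark ATTGG and, where AGNNACNG stood upstream of it within 40 bases, those letters as well.
H2-Aa (chr17:34287857-34287926, minus strand): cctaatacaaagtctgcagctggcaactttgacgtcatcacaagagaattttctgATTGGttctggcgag
H2-Eb1 (chr17:34305753-34305822, plus strand): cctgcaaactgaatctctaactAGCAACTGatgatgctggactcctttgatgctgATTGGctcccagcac
H2-DMa (chr17:34125268-34125334, plus strand): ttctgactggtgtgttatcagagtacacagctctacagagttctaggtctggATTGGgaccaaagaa
H2-DMb1 (chr17:34153075-34153144, plus strand): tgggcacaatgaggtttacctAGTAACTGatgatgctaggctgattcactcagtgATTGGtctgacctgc
H2-DMb2 (chr17:34145104-34145173, plus strand): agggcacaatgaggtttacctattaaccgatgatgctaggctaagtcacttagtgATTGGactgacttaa
H2-Oa (chr17:34092281-34092350, plus strand): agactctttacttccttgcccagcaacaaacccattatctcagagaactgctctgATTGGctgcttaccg
H2-Ob (chr17:34238793-34238862, plus strand): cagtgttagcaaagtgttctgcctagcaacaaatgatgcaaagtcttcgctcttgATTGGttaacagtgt
ATTGG in the direction of the gene was present in 7 of 7 members with a window, against 22.1% of the 32851 promoters in the table (37.4% on either strand). These shares count windows, of which the 7 members have 8. ATTGG stood 43 to 90 bases before the start site in 6 members, and 198 bases before it in H2-DMa. H2-DMa has 2 windows, and the other holds no ATTGG in this direction. AGNNACNG alone was present in 5 of 7 members and 50.9% of promoters, so it is a common match. The ordered pair was present in 2 of 7, H2-Eb1 and H2-DMb1, with 25 and 26 bases between the letters, against 2.13% of promoters. The letters are strict: H2-Oa and H2-Ob hold agcaacaa upstream of ATTGG, which departs from AGNNACNG only in its last letter. A missing match therefore does not show that an X box is absent. The windows of H2-DMb1 and H2-DMb2 differed at 10 of 70 bases. One of these, G23T (counted from 1 at the 5′ end of the printed window, the H2-DMb1 base first), falls on a fixed letter of AGNNACNG. A match in these letters is a description and not a measured binding site.

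pDCs had less transcript of the class II presentation genes than either conventional subset. All 10 members were lower in pDCs than in cDC1s, where 24.4% of all genes tested were lower, and none was higher, where 24.3% of all genes were higher. Against cDC2s, 9 of 10 were lower in pDCs and none was higher, where 23.3% of all genes were lower and 22.5% higher. The median log2 fold change over the 10 members was -1.58 against cDC1s and -1.55 against cDC2s, where the medians over all genes tested were 0.018 and -0.0088. The pDC libraries did not overlap the cDC1 libraries in 10 of 10 members or the cDC2 libraries in 9 of 10, as was the case for 58.6% and 56.1% of all genes tested. The sizes were uneven, from a 10.8-fold difference for H2-Ob to 1.30-fold for H2-Oa among those that passed. Both comparisons use the same pDC libraries. In sorted bulk RNA, fewer cells with a transcript and less of it in each cell cannot be told apart.

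**Figure D1:**
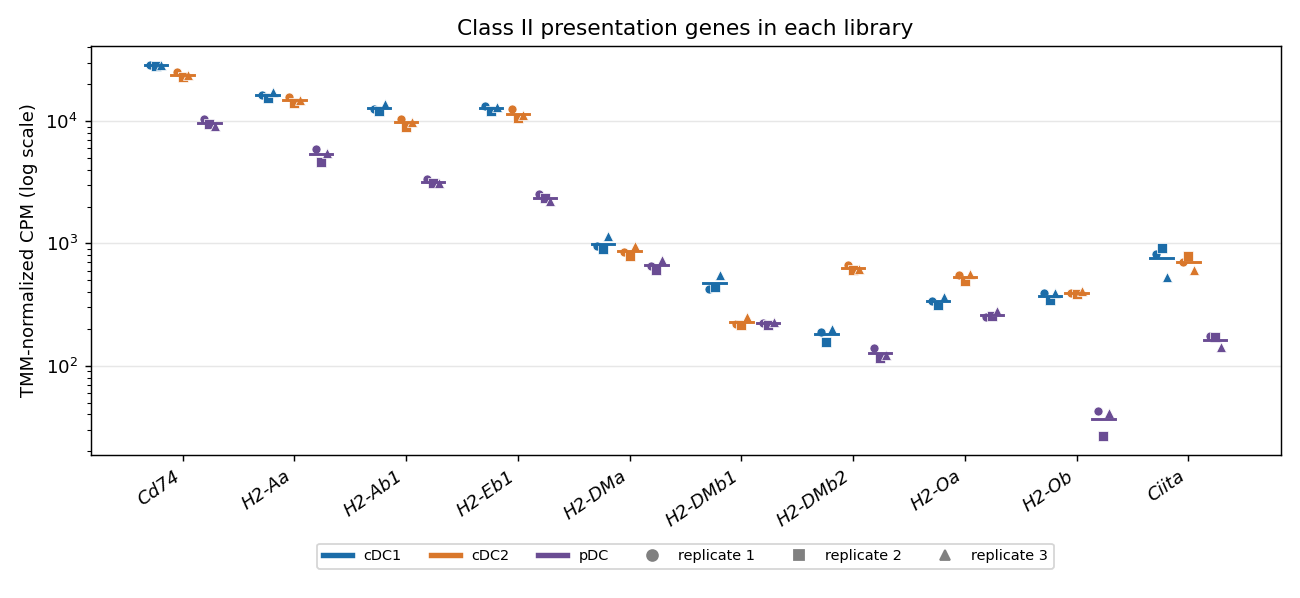
TMM-normalized CPM (log scale) of the 10 class II presentation genes in each of 9 libraries, with colours for the subsets, symbols for the replicate numbers and a bar at each subset mean. The pDC points lie below the cDC1 points for every gene, while H2-DMb1 overlaps between pDCs and cDC2s, and H2-DMb2 stands highest in cDC2s at 629.5 CPM.

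Together the 10 genes took 7.02 ± 0.139% of all counts in cDC1s (SD, n = 3), 6.52 ± 0.307% in cDC2s and 2.24 ± 0.155% in pDCs. The 3 pDC libraries lay between 2.13 and 2.42%, and the 6 conventional libraries between 6.26 and 7.12%. Cd74 alone took 2.72 ± 0.0550% of counts in cDC1s and 2.45 ± 0.0856% in cDC2s, the largest share of any gene in both, and 0.986 ± 0.0767% in pDCs, where it ranked 3 among all genes. The classical chains were also among the most counted transcripts of pDCs, with H2-Aa at rank 8, H2-Ab1 at rank 23 and H2-Eb1 at rank 30 by share of counts. The other 6 members ranked lower there, from 170 for H2-DMa to 4949 for H2-Ob. Expressed per kilobase of the principal transcript, mean CPM in cDC1s was 20250 for Cd74, 14450 for H2-Aa, 10590 for H2-Ab1 and 7664 for H2-Eb1, which makes these 4 the higher tier. The lower tier in cDC1s ran from 601 per kilobase for H2-DMa through 337 for H2-DMb1, 313 for H2-Oa, 140 for H2-Ob and 127 for H2-DMb2 to 126 for Ciita. In pDCs, CPM per kilobase was 6876 for Cd74, 4740 for H2-Aa, 400 for H2-DMa, 27.0 for Ciita and 13.8 for H2-Ob.

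The I-A chains differed between subsets in step but not by the same size. H2-Aa, the alpha chain, stood at 16327, 15391 and 17165 CPM in cDC1 replicates 1, 2 and 3, at 15812, 13986 and 14868 in cDC2s and at 5948, 4650 and 5440 in pDCs. The pDC libraries were all below the conventional ones, while cDC1s and cDC2s overlapped. The log2 fold change was -1.61 for pDCs against cDC1s (SE 0.102, adjusted p = 1.14e-06), -1.48 against cDC2s (SE 0.101, adjusted p = 2.04e-06) and -0.13 for cDC2s against cDC1s (SE 0.0991, adjusted p = 0.411). H2-Ab1, the beta chain of the same molecule, stood at 12656, 12062 and 13778 CPM in cDC1s, at 10477, 9007 and 9870 in cDC2s and at 3374, 3090 and 3103 in pDCs. Its 3 subsets did not overlap. It was lower in pDCs by 4.02-fold against cDC1s (log2 fold change -2.01, SE 0.0887, adjusted p = 1.35e-07) and 3.07-fold against cDC2s (-1.62, SE 0.0876, adjusted p = 4.45e-07). Unlike H2-Aa it was also called between the conventional subsets, lower in cDC2s at -0.39 (SE 0.0856, adjusted p = 0.00801), though that difference between the genes is tested only by their ratio, given further on.

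H2-Eb1, the I-E beta chain that lacks its partner in this strain, showed the largest fall among the classical chains. It stood at 13184, 12157 and 13031 CPM in cDC1s, at 12526, 10666 and 11255 in cDC2s and at 2520, 2349 and 2232 in pDCs. The conventional subsets overlapped and the pDC libraries lay far below both. Its log2 fold change was -2.43 for pDCs against cDC1s (SE 0.0892, adjusted p = 5.64e-08) and -2.28 against cDC2s (SE 0.0887, adjusted p = 1.01e-07). For cDC2s against cDC1s it was -0.16 (SE 0.0847, adjusted p = 0.233), and a fit with the replicate block called the same difference (adjusted p = 0.0353). The I-E alpha locus, listed as H2-Ea-ps, was too low to test, at 0.0521 CPM in cDC1s, 0.0542 in cDC2s and 0.259 in pDCs.

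Cd74 (chr18:60803848-60812652, plus strand) encodes the invariant chain, the chaperone of every class II pair. It stood at 29029, 28014 and 28603 CPM in cDC1s, at 24996, 22862 and 23670 in cDC2s and at 10437, 9488 and 9161 in pDCs, with no overlap between subsets. It was lower in pDCs by 2.94-fold against cDC1s (log2 fold change -1.56, SE 0.0736, adjusted p = 1.83e-07) and 2.46-fold against cDC2s (-1.30, SE 0.0731, adjusted p = 5.66e-07). The step from cDC1s to cDC2s was -0.26 (SE 0.0719, adjusted p = 0.0255). That last call was lost under library size scaling alone (-0.15, adjusted p = 0.139), without the filter on low counts (adjusted p = 0.0751), and without cDC1 replicate 1 (adjusted p = 0.0896), cDC1 replicate 2 (0.0555), cDC2 replicate 2 (0.0666) or cDC2 replicate 3 (0.0595), all from the same edgeR test.

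H2-DMa, the alpha chain of H2-DM, had one of the smaller differences in pDCs. It stood at 945, 904 and 1143 CPM in cDC1s, at 854, 794 and 956 in cDC2s and at 658, 609 and 725 in pDCs. Every pDC library was below every conventional library, and the conventional subsets overlapped. Its log2 fold change was -0.59 for pDCs against cDC1s (SE 0.120, adjusted p = 0.00262) and -0.39 against cDC2s (SE 0.120, adjusted p = 0.0241). The second call was lost without cDC2 replicate 1 (adjusted p = 0.0542), cDC2 replicate 3 (0.0768), pDC replicate 1 (0.0650) or pDC replicate 2 (0.0725), while the log2 fold change stayed between -0.45 and -0.32 over 19 alternatives. For cDC2s against cDC1s it was -0.20 (SE 0.120, adjusted p = 0.281), and the replicate block made it a call at the same size (adjusted p = 0.0167). Exons of Brd2 on the other strand cover 10.4% of the exon bases of H2-DMa, and whether the counting used the strand is not given in the sources used here.

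The paired beta chain genes of H2-DM went opposite ways between the conventional subsets. H2-DMb1 stood at 424, 441 and 556 CPM in cDC1s, at 220, 217 and 248 in cDC2s and at 223, 213 and 228 in pDCs. The cDC1 libraries were all above the rest, and cDC2s and pDCs overlapped. The log2 fold change was -1.05 for cDC2s against cDC1s (SE 0.119, adjusted p = 0.000164), -1.10 for pDCs against cDC1s (SE 0.120, adjusted p = 4.32e-05) and -0.043 for pDCs against cDC2s (SE 0.118, adjusted p = 0.799). H2-DMb2 stood at 189, 156 and 199 CPM in cDC1s, at 664, 603 and 621 in cDC2s and at 141, 116 and 122 in pDCs. Its cDC2 libraries were far above all others, and the pDC libraries lay below those of cDC1s. It was higher in cDC2s than in cDC1s by 3.47-fold (log2 fold change 1.79, SE 0.121, adjusted p = 8.2e-06). pDCs were lower by 4.98-fold against cDC2s (-2.32, SE 0.123, adjusted p = 3.97e-07) and by 1.44-fold against cDC1s (-0.52, SE 0.118, adjusted p = 0.00461).

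The split of reads between H2-DMb1 (chr17:34153072-34160230) and H2-DMb2 (chr17:34143307-34151555) is uncertain in size, since the genes are near-identical copies. Their coding sequences, each 783 bases, were identical at 751 bases (95.9%) with no gap, and 19.1% of the 75-base windows of the H2-DMb1 principal transcript, the length of a read, also occurred in H2-DMb2. Reads from such windows could be assigned to either or dropped. The stretch of coding bases 193 to 267, in exon 2, is where reads tell the genes apart best, with 17 differences in 75 bases, shown in capitals.
H2-DMb1 (chr17:34155570-34155644, plus strand): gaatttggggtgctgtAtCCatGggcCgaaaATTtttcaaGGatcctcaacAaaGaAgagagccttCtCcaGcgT
H2-DMb2 (chr17:34147788-34147862, plus strand): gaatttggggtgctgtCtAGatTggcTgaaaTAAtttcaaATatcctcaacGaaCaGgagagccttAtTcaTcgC
The median over all such 75-base stretches was 1 difference, and some had none. The sum of both genes, which shared reads would not split, was 655 ± 87.0 CPM in cDC1s (SD, n = 3), 858 ± 33.5 in cDC2s and 348 ± 17.5 in pDCs. Of that sum H2-DMb2 gave 27.8 ± 2.65% in cDC1s, 73.4 ± 1.85% in cDC2s and 36.3 ± 2.11% in pDCs. The 3 cDC2 libraries lay between 71.5 and 75.1%, and no library of the other subsets passed 38.7%.

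The chains of H2-DO, the brake on H2-DM, were lower in pDCs by very different amounts. H2-Oa, the alpha chain, stood at 340, 315 and 367 CPM in cDC1s, at 547, 490 and 559 in cDC2s and at 250, 254 and 282 in pDCs. The 3 subsets did not overlap, with cDC2s highest. The log2 fold change was 0.64 for cDC2s against cDC1s (SE 0.0995, adjusted p = 0.00113), -1.02 for pDCs against cDC2s (SE 0.100, adjusted p = 2.3e-05) and -0.38 for pDCs against cDC1s (SE 0.0993, adjusted p = 0.0103). Exons of BC051537 on the other strand cover 22.8% of its exon bases. H2-Ob, the beta chain, stood at 390, 342 and 392 CPM in cDC1s, at 393, 388 and 405 in cDC2s and at 42.5, 26.6 and 41.1 in pDCs. It had the largest difference of the 10 members, lower in pDCs by 10.2-fold against cDC1s (log2 fold change -3.35, SE 0.176, adjusted p = 3.73e-07) and 10.8-fold against cDC2s (-3.43, SE 0.176, adjusted p = 3.31e-07). Between the conventional subsets it was 0.077 (SE 0.159, adjusted p = 0.791).

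Ciita encodes the co-activator on which these promoters depend. It stood at 813, 922 and 536 CPM in cDC1s, at 704, 795 and 603 in cDC2s and at 175, 171 and 141 in pDCs. The pDC libraries were far below the rest, and cDC1s and cDC2s overlapped widely. It was lower in pDCs by 4.66-fold against cDC1s (log2 fold change -2.22, SE 0.201, adjusted p = 1.18e-05) and 4.31-fold against cDC2s (-2.11, SE 0.200, adjusted p = 1.86e-05), and stood at -0.11 for cDC2s against cDC1s (SE 0.192, adjusted p = 0.746). Gene counts join the transcripts from its separate promoters, so their use in each subset could not be read, and exons of Dexi on the other strand cover 3.45% of its exon bases. In all 3 subsets Ciita was lowest in replicate 3, by 0.46, 0.21 and 0.19 below the subset mean on the log2(CPM + 1) scale in cDC1s, cDC2s and pDCs. H2-DMa, H2-DMb1 and H2-Oa were highest in that same replicate in all 3 subsets, H2-DMa by 0.20, 0.14 and 0.13. Without replicate 3, Ciita was at -2.36 for pDCs against cDC1s (adjusted p = 4.97e-06) and -2.12 against cDC2s (adjusted p = 7.56e-06), by the same edgeR test.

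**Figure D2:**
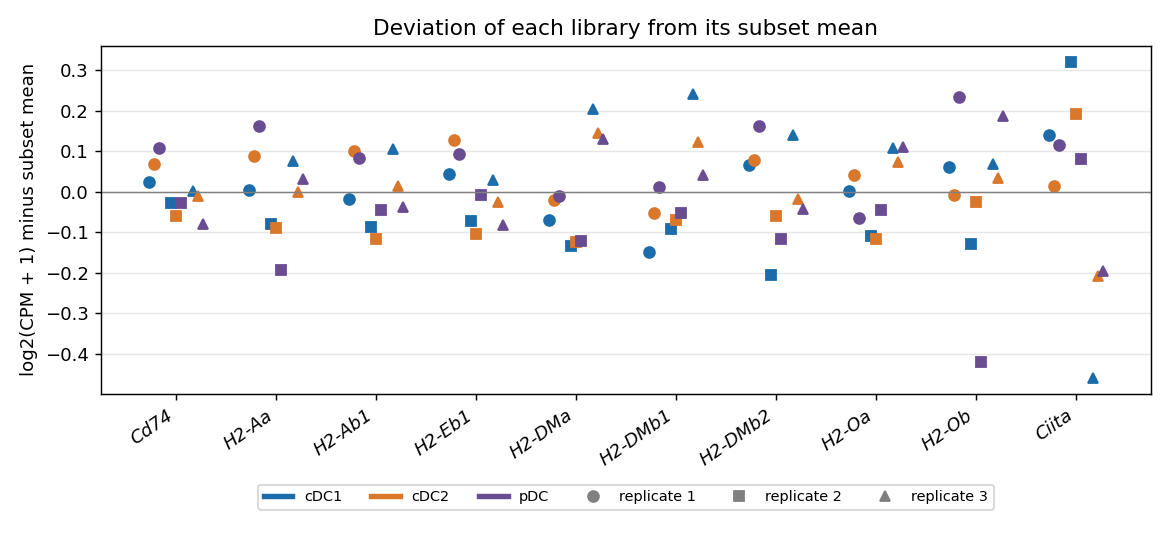
Each library's deviation from its subset mean, in log2(CPM + 1), for the 10 genes, with colours for subsets and symbols for replicate numbers, which share a date code across subsets. Ciita lies below 0 in replicate 3 of every subset, down to -0.46 in cDC1s, and H2-DMa, H2-DMb1 and H2-Oa lie above 0 in replicate 3 of every subset.

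Between the conventional subsets the class II genes went both ways. Of 10 members, 2 were higher in cDC2s than in cDC1s (H2-DMb2 and H2-Oa), where 12.7% of all genes tested were higher, and 3 were lower (H2-Ab1, H2-DMb1 and Cd74), where 11.7% were lower. With the replicate block 5 were lower, H2-DMa and H2-Eb1 added, and 2 higher. The libraries did not overlap for 5 of 10 members, near the 44.5% of all genes tested. The median log2 fold change was -0.14 over the members and 0.027 over all genes. Over all genes the split was 1760 higher to 1610 lower, and by library size alone 2204 to 1287, with the median of all genes at 0.14. Under that scaling 4 members were called, 2 in each direction, and Cd74 was not among them. With a log2 fold change of 1 or more in size also required, the 2 members called were H2-DMb1 and H2-DMb2.

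**Figure D3:**
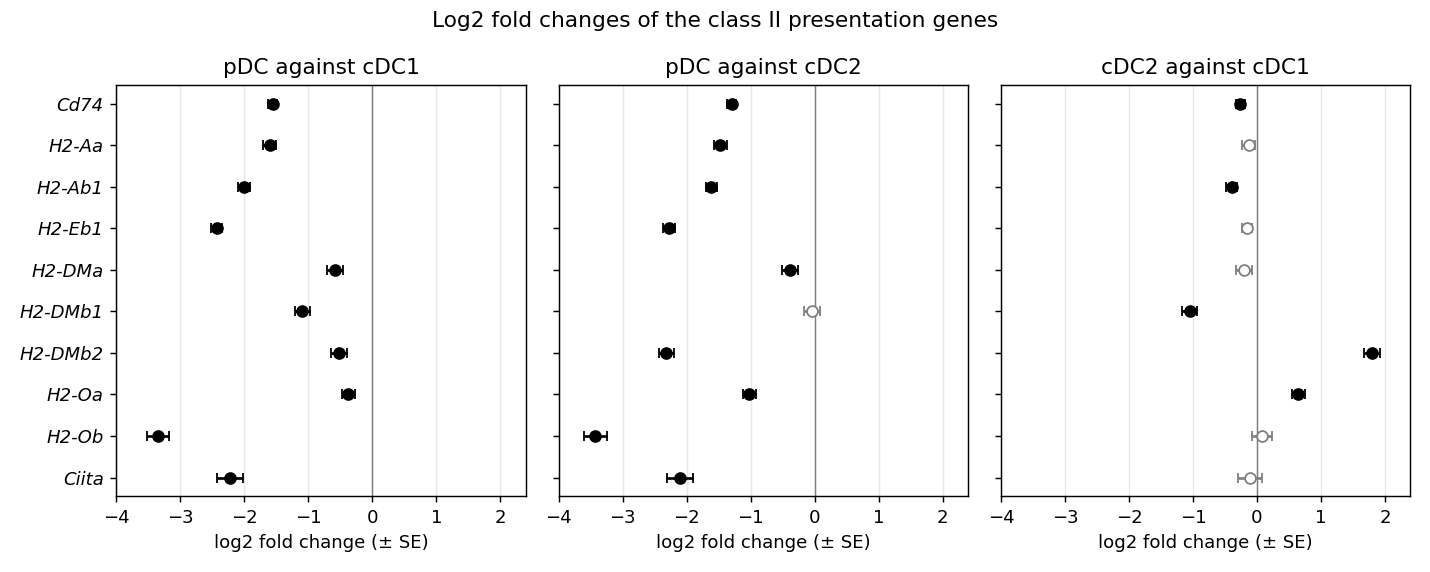
Log2 fold change ± SE of each gene for pDCs against cDC1s, pDCs against cDC2s and cDC2s against cDC1s, with filled points for adjusted p under 0.05 in edgeR's quasi-likelihood test. All points of pDCs against cDC1s are filled and below 0, from -0.38 for H2-Oa to -3.35 for H2-Ob, and only H2-DMb2, at 1.79, and H2-Oa, at 0.64, are filled and above 0 for cDC2s against cDC1s.

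Ratios of members within a library do not depend on the scaling between libraries, and so show which parts of the pathway changed by unequal amounts. A set of 8 pairs was compared over the 3 subsets with an exact permutation F test on log2 ratios of counts (pseudocount 0.5, 1680 arrangements, smallest p 0.00357), adjusted over the 8 pairs. The ratio of H2-Ob to H2-Oa had a geometric mean of 1.10 in cDC1s, 0.744 in cDC2s and 0.138 in pDCs (exact p = 0.00357, adjusted p = 0.00571). The 3 subsets did not overlap, and the pDC libraries ran from 0.105 to 0.170. The ratio of H2-DMb2 to H2-DMb1 was 0.384 in cDC1s, 2.76 in cDC2s and 0.568 in pDCs (exact p = 0.00357), with the uncertainty of shared reads given above. The ratio of H2-Oa to H2-DMa was 0.343 in cDC1s, 0.614 in cDC2s and 0.395 in pDCs (exact p = 0.00357). It sets 1 chain of the brake against 1 chain of its target. H2-Ob, the other chain of the brake, was not set against H2-DMa. Mean H2-Ob was 375, 395 and 36.7 CPM in cDC1s, cDC2s and pDCs, and mean H2-DMa 997, 868 and 664.

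Relative to the I-A beta chain, pDCs had more H2-DMa and less H2-Eb1. The ratio of H2-DMa to H2-Ab1 was 0.0774 in cDC1s, 0.0886 in cDC2s and 0.208 in pDCs (exact p = 0.00714, adjusted p = 0.00952). The pDC libraries, from 0.195 to 0.234, stood above all others, while cDC1s and cDC2s overlapped. The ratio of Cd74 to H2-Ab1 was 2.23, 2.44 and 3.04 in cDC1s, cDC2s and pDCs (exact p = 0.00357). The ratio of H2-Eb1 to H2-Ab1 was 0.998, 1.17 and 0.742 (exact p = 0.00357), so the beta chains did not keep one proportion. The ratio of H2-Aa to H2-Ab1 was 1.27, 1.52 and 1.67 (exact p = 0.0143, adjusted p = 0.0163). Its pDC and cDC2 libraries overlapped, while the cDC1 libraries, from 1.25 to 1.29, lay below the cDC2 libraries, from 1.51 to 1.55. Permuting within replicate numbers it was not called (exact adjusted p = 0.0635). That permutation has fewer arrangements, so its smallest p is higher than the one given above. The ratio of Ciita to H2-Ab1 was 0.0576, 0.0713 and 0.0508 (exact p = 0.289), the one pair of 8 not called. Its cDC1 libraries, between 0.0389 and 0.0764, overlapped both other subsets. The pDC libraries, from 0.0455 to 0.0553, lay below the cDC2 libraries, from 0.0611 to 0.0883.

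**Figure D4:**
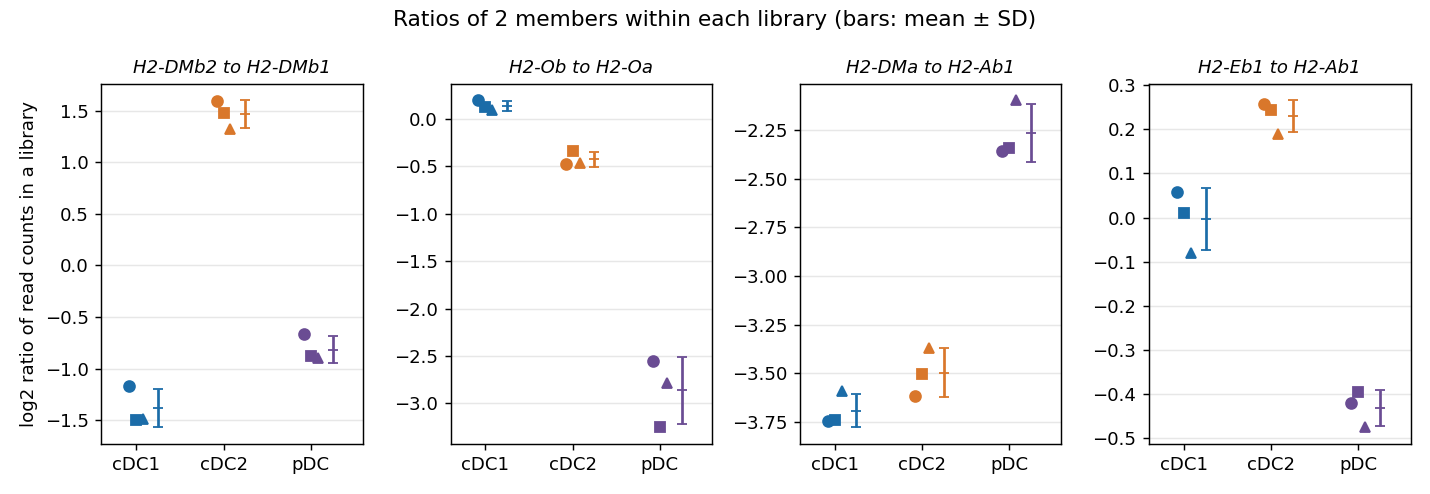
Log2 ratio of read counts of 4 gene pairs within each library, by subset, with symbols for replicate numbers and bars for the mean ± SD of 3 libraries. The ratio of H2-DMb2 to H2-DMb1 is above 0 only in cDC2s, H2-Ob to H2-Oa falls to a mean of -2.86 in pDCs, and H2-DMa to H2-Ab1 is highest in pDCs, at -2.27.

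Among the genes of the proteins that recruit CIITA, the directions were mixed. Of 7 genes of RFX, NF-Y and CREB1, 4 were lower in pDCs than in cDC1s and 1 was higher, against 24.4 and 24.3% of all genes tested, with a median log2 fold change of -0.34. Against cDC2s, 3 were lower and 1 higher, where 23.3 and 22.5% of all genes were. Rfxank, an RFX subunit, was the one that was higher, at 28.4 ± 1.70 CPM in pDCs, 16.9 ± 0.301 in cDC2s and 11.7 ± 1.08 in cDC1s (log2 fold change of pDCs against cDC1s 1.28, adjusted p = 2.76e-05). Rfxap, another subunit, stood at 32.8 ± 5.71 CPM in cDC1s and 16.2 ± 5.15 in pDCs (-1.02, adjusted p = 0.00623). Rfx5, the DNA-binding subunit, stood at 79.6 ± 3.92 CPM in cDC2s, 53.9 ± 0.410 in cDC1s and 42.6 ± 5.34 in pDCs, and was called in every comparison. Nfya and Creb1 were lower in pDCs than in both, with Nfya at 80.7 ± 11.3 CPM against 114.5 ± 10.9 in cDC1s (adjusted p = 0.00903), while Nfyb and Nfyc passed in none.

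Most genes for the processing of antigen and the invariant chain were higher in pDCs than in cDC1s. Of 10 processing genes, 7 were higher and 1 lower, against the 24.3 and 24.4% of all genes given above, and 4 were higher and 2 lower than in cDC2s, against 22.5 and 23.3%. Ctsl, which encodes cathepsin L, was at 2415 ± 35.8 CPM in pDCs, 19.3 ± 5.58 in cDC2s and 10.7 ± 3.06 in cDC1s (log2 fold change of pDCs against cDC1s 7.81, adjusted p = 8.25e-08). Ctss encodes cathepsin S, which makes the last cuts in the invariant chain of DC. It was at 1842 ± 126 CPM in pDCs and 1878 ± 115 in cDC2s (-0.03, adjusted p = 0.838), and lower in cDC1s at 1074 ± 93.4 (cDC2s against cDC1s 0.81, adjusted p = 0.000238). Ctsb was higher in pDCs, at 5391 ± 289 CPM against 775 ± 60.4 in cDC1s (2.80, adjusted p = 1.19e-07), as was Ctsh, at 1743 ± 186 against 465 ± 79.8 (1.91, adjusted p = 5.69e-06). Cst3, which encodes the protease inhibitor cystatin C, was lower in pDCs, at 1123 ± 133 CPM against 14380 ± 553 in cDC1s (log2 fold change -3.68, adjusted p = 2.76e-08) and 1746 ± 45.7 in cDC2s (-0.64, adjusted p = 0.000356). Ifi30, the lysosomal thiol reductase, was at 1397 ± 140 CPM in cDC2s and was lower in pDCs, at 624 ± 76.5 (-1.16, adjusted p = 5.95e-05). Between the conventional subsets, 7 processing genes were higher in cDC2s than in cDC1s and 1, Cst3, was lower, against 12.7 and 11.7% of all genes.

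Of 3 genes of class II turnover, 2 were lower in pDCs than in both conventional subsets, against 24.4% of all genes lower than in cDC1s and 23.3% lower than in cDC2s. March1, the ubiquitin ligase that sends class II from the surface to degradation, was at 248 ± 19.8 CPM in cDC1s, 142 ± 15.4 in cDC2s and 56.8 ± 4.58 in pDCs, and all 3 differences were called (adjusted p = 5.78e-07 for pDCs against cDC1s). Cd83, which opposes March1, was at 358 ± 16.9, 326 ± 28.1 and 9.05 ± 4.36 CPM (pDCs against cDC1s -5.30, adjusted p = 1.48e-06). March8 was near the filter, at 3.54 CPM or below, and passed in no comparison. H2-Eb2, a further beta chain gene next to H2-Eb1, was at 77.3 ± 16.9 CPM in cDC1s, 529 ± 61.1 in cDC2s and 15.5 ± 3.81 in pDCs. It was called in all 3 comparisons, with a log2 fold change of 2.77 for cDC2s against cDC1s (adjusted p = 1.78e-05) and -5.09 for pDCs against cDC2s (adjusted p = 2.13e-07). Of the other class II genes, H2-DMb2 and H2-Oa were likewise highest in cDC2s.

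**Figure D5:**
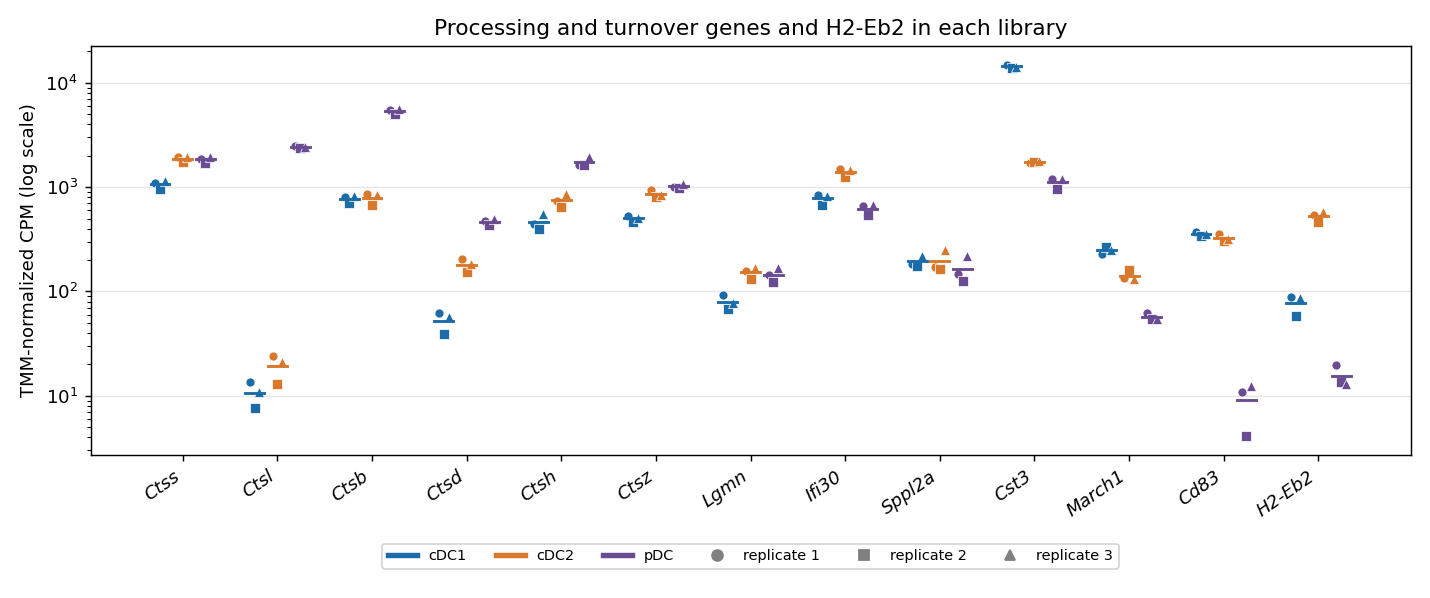
TMM-normalized CPM (log scale) of processing genes, turnover genes and H2-Eb2 in each library, with colours for subsets, symbols for replicate numbers and bars at subset means. Ctsl has a mean of 2415 CPM in pDCs, 19.3 in cDC2s and 10.7 in cDC1s, Cst3 at 14380 CPM in cDC1s, and Cd83 and March1 are lowest in pDCs.

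Markers of DC maturation were also lower in pDCs. All 7 of a list with Ccr7, Cd86 and Relb were lower in pDCs in both comparisons, against 24.4 and 23.3% of all genes. Their summed level was 1165 to 1584 CPM in cDC1s, 1187 to 1526 in cDC2s and 91.5 to 121 in pDCs. For cDC2s against cDC1s, 1 of these 7 (Relb) was higher and 2 (Cd86 and Ccl22) were lower, against 12.7 and 11.7% of all genes. The part of these markers in the class II difference was not tested. B cells also carry class II, H2-DO and Cd74. Pax5, the factor that defines them, was too low to test, at 0.0642 CPM in cDC1s, 0.0998 in cDC2s and 0.165 in pDCs. Of the 5 B cell markers tested, 4 were higher and 1 lower in pDCs than in cDC1s, against 24.3 and 24.4% of all genes. Against cDC2s, 1 was higher and 2 lower in pDCs, where 22.5 and 23.3% of all genes were. In cDC2s, 3 were higher and 1 lower than in cDC1s, against 12.7 and 11.7%. Cd79b was at 84.2 CPM in pDCs, 36.1 in cDC2s and 9.70 in cDC1s, and Ms4a1 at 1.13, 29.2 and 47.6. In macrophage markers, Emr1 (F4/80) was at 344 CPM in cDC2s and 14.0 in both other subsets. The 5 macrophage markers summed to 375 to 498 CPM in cDC2s, 83.4 to 134 in cDC1s and 17.3 to 99.3 in pDCs. Of these 5, 2 (Emr1 and Spic) were higher in cDC2s than in cDC1s, against 12.7% of all genes, and most of the cDC2 sum was Emr1. Vcam1 was at 67.9 CPM in cDC2s and 72.6 in cDC1s, and Cd5l and Mertk did not pass (adjusted p = 0.46 and 0.244). T cell markers summed to at most 5.16 CPM in any library, NK cell markers to 72.6 and monocyte and neutrophil markers to 54.2, each in a cDC2 library. The highest sums outside cDC2s were 2.24, 39.9 and 48.1 CPM, in pDCs. Of 4 NK cell markers, 1 (Ncr1) was higher in cDC2s than in cDC1s, against 12.7% of all genes. The part of the B cell, macrophage and these other markers in the higher H2-DMb2, H2-Oa and H2-Eb2 of cDC2s was not tested.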

How the data were processed

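Polyadenylated RNA of 9 sorted populations was made into stranded libraries (TruSeq Stranded mRNA) and read from 1 end over 75 bases. The authors deposited raw read counts per gene with no normalization. The submitters' processing notes name STAR, SAMtools, featureCounts, MultiQC and mm10. Their versions, the annotation release and the strand setting are not given in the sources used here. GENCODE M21 on GRCm38, the assembly of mm10, gave gene positions.

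Libraries were grouped by their labels. The analysis used edgeR 4.0.16 in R 4.3.3: filterByExpr (minimum count 10), TMM factors, and 1 quasi-likelihood fit of all 9 libraries with the subset as the only term. The paper names Degust without a statistical design. P-values were adjusted by Benjamini-Hochberg over all genes tested. They rest on the spread between libraries of a subset, which differ in both pool of mice and date code. Ratios and sequences were computed in Python 3.11.15 (Biopython 1.88), and figures drawn with matplotlib 3.10.9. The test was tried on simulated data. Same-numbered libraries, which share a date code in the labels, deviated together from their subset means (correlation across genes 0.266 to 0.543 in 9 pairs, against -0.472 to 0.17 in the 18 other pairs), so the replicate number pairs the libraries. Alternatives were the replicate block, DESeq2 1.42.0, limma-voom (limma 3.58.1), other scalings and filters, the 6 compared libraries alone, and libraries left out. Leaving out replicate 3 of every subset was added after the data were seen.

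The members and gene lists were chosen with earlier results of these data known. Genes named are the members, the genes on the lists, and the 5 genes closest in pattern to each of Ciita, H2-Ab1, H2-Oa and H2-Ob. Protein was not analysed here, and the values of 1 listed gene are not reported here. The mature DC, B cell, macrophage and other marker lists serve to describe the sorted cells.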

Additional observations from a re-analysis of the deposited data

How the results depend on the processing

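Of the 24 member differences called, 22 kept their direction and call in all 19 alternatives. The exceptions were H2-DMa for pDCs against cDC2s and Cd74 for cDC2s against cDC1s, given above. In the fit with the replicate block, the called members were 10, 9 and 7 for pDCs against cDC1s, pDCs against cDC2s and cDC2s against cDC1s. The gains were H2-DMa (-0.20, adjusted p = 0.0167) and H2-Eb1 (-0.16, adjusted p = 0.0353), and the paired fit changed no other call of a member's fold change. Of the values not called, with single libraries left out, H2-DMb1 for pDCs against cDC2s ran from -0.078 to 0.014, turning positive without cDC2 replicate 3, and Ciita for cDC2s against cDC1s from -0.34 to 0.053, turning positive without cDC1 replicate 2. With a log2 fold change of 1 or more in size also required, the genes called over the whole table numbered 4063, 3837 and 1812 in the order above, and 2 class II genes were called for cDC2s against cDC1s. With replicate 3 left out of every subset, 5356 genes were called for cDC2s against cDC1s, where all 9 libraries gave 3370. The cause was not tested. With single libraries left out this count ran from 2451 to 4100. The lowest count of a member was 525 reads, so 3 libraries per subset set the precision.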

Other observations

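The genes whose levels followed single members most closely over the 9 libraries were sought outside the class II members among 8832 genes with a mean of at least 10 CPM, by Pearson's r of log2(CPM + 1). This is a description of 9 libraries in 3 subsets, so any gene with the same order of subsets scores high. For H2-Ob the closest were Ccnb2, a cyclin (r = 0.998, at 58.3 CPM in cDC1s, 59.5 in cDC2s and 2.77 in pDCs), Agpat4, Gm11223, Cd83 and the nuclear receptor gene Nr4a3. For Ciita they were Apobr (r = 0.994, at 304, 212 and 18.5 CPM), Dlgap5, Lrrfip2, Arhgap26 and Kif4.

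For H2-Ab1, whose closest member was Cd74 (r = 0.998), the closest genes outside the members were the tetraspanin gene Cd9 (r = 0.998, at 289 CPM in cDC1s, 152 in cDC2s and 5.85 in pDCs), Rbbp7, Cdca5, Fbxo10 and Prkar2a. The pattern of H2-Oa, highest in cDC2s, was nearest to those of Med30 (r = 0.993, at 44.0 CPM in cDC1s, 88.4 in cDC2s and 27.9 in pDCs), Limd2, Fam26f, Fut4 and the malate dehydrogenase gene Mdh2. No gene was among the closest 5 of more than 1 member.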
